A study of Homo sapiens with 9 samples.

Results

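Rab GTPases, SNARE proteins of the VAMP, syntaxin and SNAP families, and synaptotagmins were followed in NCI-H716 cells. This line comes from a human colorectal cancer and keeps features of enteroendocrine cells, which store hormones in secretory granules. The members were all genes whose probe name was RAB, VAMP, STX, SNAP or SYT followed by a number and, for some, a letter. The rule found 149 probes for 104 genes, among 47230 probes for 30817 named genes. The brightest probe above background stood for its gene. The rule used names and not signals, although it was drawn up with earlier results of these data known. SNAP91 matched by name but encodes a clathrin adaptor and not a SNARE.

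The 9 Illumina bead arrays comprised 3 each for untreated cells, cells carrying a control vector, and cells carrying a YAP mutant vector. YAP is a transcriptional coactivator that the Hippo pathway holds in check. All 9 samples were RNA of the same line, and the labels name neither the mutation nor the way of delivery, nor whether cells were selected or cloned. As no label says that replicates were grown separately, p-values cover only the spread among these arrays, and that spread may be technical. In RNA of whole cultures, fewer cells expressing a gene and less RNA per cell cannot be told apart.

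Rab proteins are small GTPases that switch between an active form on a membrane and an inactive form in the cytosol, and each marks a particular compartment. SNAREs are the membrane proteins that zip together to fuse a vesicle with its target. VAMPs usually sit on the vesicle, while syntaxins and SNAPs sit on the target membrane. Synaptotagmins are vesicle proteins, several of which bind calcium and couple its entry to fusion. In enteroendocrine cells these families carry hormone granules from the Golgi to the plasma membrane and release them.

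Median raw intensities ran from 104 to 129 over the 9 arrays, and control vector replicate 3 and YAP mutant replicate 1 were the dimmest. Between 38.9% and 41.2% of all probes lay above background on an array. Of 463 olfactory receptor probes, which colorectal cells should scarcely express, 5.62% passed the same filter. YAP1, the gene carried by the vector, was measured at mean log2 signals of 8.16, 7.86 and 7.93 in the untreated, control vector and YAP mutant arrays. The log2 difference of YAP1 between the vectors was 0.07 ± 0.11 (SE, n = 3 per group; limma, adjusted p = 0.964). Which stretch of the YAP1 transcript this probe reads is not given, so it is no check of the labels.

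The cell type was checked on marker genes. Of 13 enteroendocrine genes, 11 lay above background, among them the glucagon gene GCG and the chromogranin CHGA, while PCSK2 and PAX6 did not. Of 4 epithelial genes, 3 lay above background, and the cadherin CDH1 did so on 0 arrays. Fibroblast markers were above background in 4 of 6 cases (COL1A1, COL1A2, COL3A1 and LUM), with DCN and PDGFRB on 0 arrays. Blood markers were so in 3 of 5 cases (CD79A, CD14 and LYZ), with PTPRC and CD3E on 0 arrays. Of 4 endothelial markers, 1 was above background. In untreated arrays the summed linear signal of the detected markers was 49156 to 53604 for enteroendocrine genes and 1125 to 1199 for epithelial ones. It was higher than the epithelial sum for fibroblast markers, at 2858 to 3073, and for blood markers, at 2445 to 2841.

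Transcripts of 71 of the 104 members were above background on at least 3 of the 9 arrays, and 63 of these were above it on every array. Another 8 members were above it on 1 or 2 arrays and 25 on 0. Syntaxins, SNAPs and VAMPs were mostly detected, at 12 of 15, 4 of 5 and 7 of 7. Rabs were detected in 40 of 60 cases and synaptotagmins in 8 of 17. A probe below background says only that this probe gave no signal, since a probe can also be insensitive.

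**Figure D1:**
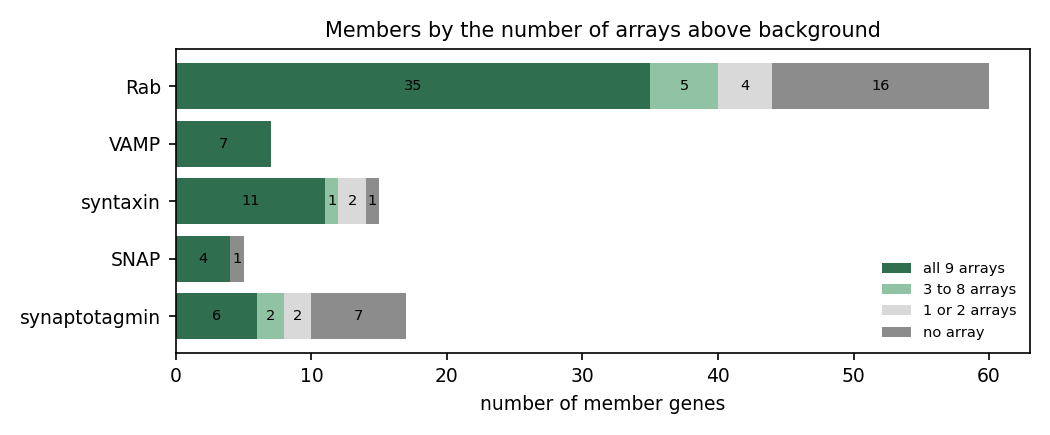
Number of member genes in each family by the number of arrays (of 9) on which the gene's brightest probe was above background. All 7 VAMPs were above background on 9 arrays, while 7 of 17 synaptotagmins were so on none.

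Rabs of regulated secretion, which bring granules to the plasma membrane, were detected in 5 of 8 cases: RAB3C, RAB26, RAB27A, RAB27B and RAB37. RAB3A, RAB3B and RAB3D were not. Rabs of the endoplasmic reticulum and Golgi were detected in 9 of 17 cases: RAB1A, RAB1B, RAB2A, RAB2B, RAB6A, RAB18, RAB30, RAB33B and RAB34. RAB6B, RAB6C, RAB19, RAB33A, RAB36, RAB39B, RAB41 and RAB43 were not, nor was RAB39, which is named here as in the deposited table. For transport to the plasma membrane and recycling, 11 of 14 were detected: RAB4A, RAB4B, RAB8A, RAB8B, RAB10, RAB11A, RAB12, RAB13, RAB14, RAB15 and RAB35. RAB11B, RAB17 and RAB25 were not, the latter pair being Rabs known from polarised epithelia. All 7 Rabs of early endosomes were detected: RAB5A, RAB5B, RAB5C, RAB20, RAB21, RAB22A and RAB31. Of the Rabs of late endosomes, lysosomes and related organelles, RAB7A, RAB9A, RAB24 and RAB38 were detected, and RAB7B, RAB9B and RAB32 were not. RAB23, RAB28, RAB40B and RAB40C were detected, and RAB40A and RAB42 were not.

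Among the SNAREs, VAMP1, VAMP2, VAMP3, VAMP4, VAMP5, VAMP7 and VAMP8 were detected. STX1A, STX2, STX3 and STX4 of the plasma membrane were detected, as were the endosomal and trans-Golgi STX6, STX7, STX8, STX10, STX12 and STX16, and STX5 and STX17 of the Golgi and endoplasmic reticulum. STX11, STX18 and STX19 were not. SNAP23, SNAP25, SNAP29 and SNAP47 were detected. The synaptotagmins detected were SYT1, SYT4, SYT5, SYT7, SYT11, SYT13, SYT15 and SYT17. SYT2, SYT3, SYT6, SYT8, SYT9, SYT10, SYT12, SYT14 and SYT16 were not. Of the calcium-binding synaptotagmins, 3 of 8 were therefore detected, SYT1, SYT5 and SYT7. The 8 members that passed the filter but were above background on only 3 to 8 arrays were RAB14, RAB15, RAB27B, RAB31, RAB34, STX17, SYT5 and SYT13, and their differences are compressed by the nearby background. The number of members above background on all 3 arrays of a group was 65 for untreated cells, 65 for the control vector and 64 for the YAP mutant vector.

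The comparison of the 2 vectors asks what differs with the YAP mutant beyond carrying a vector. The comparisons with untreated cells also take in the vector and any handling or selection that came with it, which cannot be told apart. Between the vectors, 1 of the 71 detected members was called, VAMP5, and it rose. A call here is an adjusted p under 0.05 over all 15589 genes and unnamed probes tested, and 0.340% of them were called in this comparison. Against untreated cells, the YAP mutant arrays had 3 members called, with VAMP5 and RAB26 higher and STX1A lower, where 5.17% of all features were called. The control vector arrays had 2 members called against untreated cells, VAMP5 and RAB15, both higher, where 2.18% of all features were called. RAB15 was above background on 0 of 3 untreated arrays and was tested only through its vector arrays, so this count without it is 1, VAMP5. The share of members called between YAP mutant and untreated arrays, 4.23%, was near that of all features, and the share between the vectors, 1.41%, rests on 1 gene. The comparisons share arrays, so their calls are not independent of each other.

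Promoters are shown for the called members that had a sequence in the promoter set used, VAMP5 and STX1A. RAB26 and RAB15 had none there. VAMP5 and STX1A also had the highest and the lowest difference among the members between YAP mutant and untreated arrays. Each run is the 250 bases before the gene's start on the gene's own strand, from RefSeq (GRCh38.p14), at chr2:85584181-85584430 (plus strand) for VAMP5 and chr7:73719670-73719919 (minus strand) for STX1A. Capitals mark matches, on either strand, to CATTCC, the core bound by TEAD factors through which YAP acts, or to GGGCGG, the GC box of Sp1.
VAMP5: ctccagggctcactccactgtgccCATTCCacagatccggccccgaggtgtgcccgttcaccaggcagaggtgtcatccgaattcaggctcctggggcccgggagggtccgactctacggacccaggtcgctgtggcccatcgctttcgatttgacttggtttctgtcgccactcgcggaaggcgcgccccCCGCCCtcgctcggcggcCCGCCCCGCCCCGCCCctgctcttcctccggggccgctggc
STX1A: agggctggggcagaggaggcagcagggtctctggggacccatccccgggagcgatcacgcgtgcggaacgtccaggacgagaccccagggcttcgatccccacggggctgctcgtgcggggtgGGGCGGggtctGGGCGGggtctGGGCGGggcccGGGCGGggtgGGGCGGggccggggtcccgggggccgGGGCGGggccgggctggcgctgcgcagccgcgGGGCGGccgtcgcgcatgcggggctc

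The VAMP5 stretch holds 1 CATTCC match, 226 bases before the start, and 4 matches to GGGCGG, all on the other strand, of which 3 overlap by their end bases. The STX1A stretch holds 0 matches to CATTCC and 7 to GGGCGG. Neither holds TGANTCA (AP-1) or TGACGTCA (the cyclic AMP response element). GC content was 70.0% for VAMP5 and 80.8% for STX1A. Over 27305 promoter windows of this length, 11.9% hold CATTCC, 42.3% hold GGGCGG, 6.60% hold TGANTCA and 1.77% hold TGACGTCA. Of the 57 detected members with a sequence, 5 (8.77%) hold CATTCC and 47 (82.5%) hold GGGCGG. The 27305 windows were not limited to detected genes, so the 2 sets of shares are not alike and were not tested against each other. A match is a description of these letters and not evidence that a factor binds there.

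VAMP5, also called myobrevin, is a VAMP of the plasma membrane first described in differentiating muscle cells. Its log2 signals were 9.22, 9.20 and 9.25 in untreated cells, 9.66, 9.72 and 9.79 with the control vector and 10.29, 10.31 and 10.27 with the YAP mutant vector. The groups did not overlap and stood in that order, with gaps several times wider than the spread within a group. Between the vectors VAMP5 rose 1.48-fold (log2 difference 0.57 ± 0.10, SE, n = 3 per group; limma, adjusted p = 0.00424). Against untreated cells it rose 2.10-fold with the YAP mutant vector (1.07 ± 0.10; limma, adjusted p = 3.12e-07) and 1.41-fold with the control vector (0.50 ± 0.10; limma, adjusted p = 0.00489). With arrays scaled to a common median instead of quantile normalized, the call between the vectors was lost (log2 difference 0.52, adjusted p = 0.785), as was that of the control vector against untreated cells (0.41, adjusted p = 0.450). VAMP8, the gene next to VAMP5 on chromosome 2 and a SNARE of exocytosis in many secretory cells, was not called, with log2 differences of -0.03, -0.14 and -0.11 in the same 3 comparisons.

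STX1A, syntaxin 1A, is the plasma membrane SNARE that pairs with SNAP25 and VAMP2 in neuronal and endocrine exocytosis. Its log2 signals were 10.86, 10.67 and 10.72 in untreated cells, 10.55, 10.47 and 10.53 with the control vector and 10.20, 10.01 and 10.04 with the YAP mutant vector. Every array of the YAP mutant group lay below every control vector array, and these lay below every untreated array. STX1A fell by 0.67 ± 0.10 on the log2 scale with the YAP mutant vector against untreated cells, which is 1.59-fold lower (SE, n = 3 per group; limma, adjusted p = 0.000169). Between the vectors its difference was -0.44 ± 0.10, which missed the threshold (limma, adjusted p = 0.0659), and against untreated cells the control vector differed by -0.23 (adjusted p = 0.294). Without background correction the difference between the vectors passed (limma, adjusted p = 0.0211), as it did in the authors' normalized table (adjusted p = 0.0222) and with a trended, robust prior variance (adjusted p = 0.0284). It passed under no other alternative. Over 20 alternatives the log2 difference ran from -0.50 to -0.40 and the adjusted p reached 0.981 (limma). STX1A had the lowest member difference in both comparisons of the YAP mutant vector.

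RAB26 is a Rab of secretory granules, known from exocrine cells and from synaptic vesicles. Its log2 signals were 11.94, 12.07 and 11.97 in untreated cells, 12.26, 12.30 and 12.16 with the control vector and 12.41, 12.43 and 12.36 with the YAP mutant vector. The groups did not overlap in any comparison. RAB26 rose 1.33-fold with the YAP mutant vector against untreated cells (log2 difference 0.41 ± 0.10, SE, n = 3 per group; limma, adjusted p = 0.0129). It differed by 0.16 between the vectors (limma, adjusted p = 0.850) and by 0.25 between control vector and untreated arrays (adjusted p = 0.229). The call was lost with arrays scaled to a common median (log2 difference 0.25, adjusted p = 0.512) and without untreated replicate 3 (0.39, adjusted p = 0.0534).

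RAB15, a Rab of the recycling route from endosomes, lay near background. Its log2 signals were 6.01, 6.26 and 6.43 in untreated cells, 6.68, 6.58 and 6.98 with the control vector and 6.48, 6.67 and 6.81 with the YAP mutant vector. It was above background on 0 of 3 untreated arrays, 3 of 3 control vector arrays and 2 of 3 YAP mutant arrays, so it was tested only because of the vector arrays. A gene that enters the test through the groups where it is high had to differ, so its call supports nothing beyond the signals above. Against the background level it was at least 1.19-fold higher with the control vector and at least 1.12-fold higher with the YAP mutant vector. These bounds were not tested. The tests were of the signals themselves, at log2 differences of 0.51 (limma, adjusted p = 0.0334) and 0.42 (adjusted p = 0.0536) against untreated cells. Which of these differences passed depended on the settings: without both dim arrays the adjusted p was 0.167 for the control vector and 0.0179 for the YAP mutant vector (limma). The groups of the 2 vectors overlapped.

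**Figure D2:**
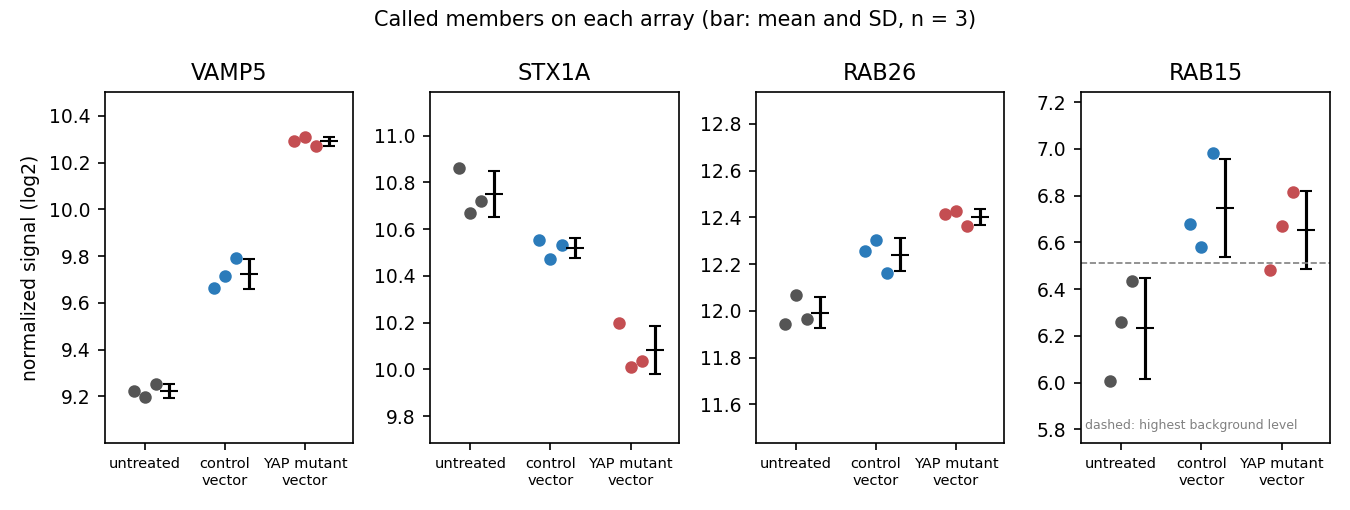
Normalized log2 signal of the 4 called members on each array (points), with the mean and SD of each group of 3 arrays (bars) and the same height of scale in each panel. VAMP5 climbs from about 9.22 in untreated arrays to 10.29 with the YAP mutant vector, STX1A descends, RAB26 climbs less, and the untreated arrays of RAB15 lie under the dashed line, the highest background level of any array.

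The Rabs with the next smallest p-values and those of regulated secretion showed smaller differences. RAB40B, a Rab with a SOCS box that acts in ubiquitination and secretion of matrix proteases, read 9.53, 9.86 and 9.70 in untreated cells, 10.17, 9.95 and 10.07 with the control vector and 9.99, 10.02 and 10.06 with the YAP mutant vector. Both vector groups lay above untreated cells, by 0.36 (limma, adjusted p = 0.0787) and 0.32 (adjusted p = 0.0819), and neither passed. Without background correction both did (limma, adjusted p = 0.0437 and 0.0453), as in the authors' normalized table (adjusted p = 0.0442 and 0.0481), but under no other alternative. Over 20 alternatives the adjusted p reached 0.798 and 0.705 (limma). RAB37, a Rab of granules in mast cells and other secretory cells, read 7.10, 7.04 and 7.20, then 7.47, 7.10 and 7.05, then 7.20, 7.33 and 7.13 in the same order of groups, and the groups overlapped.

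RAB27A and RAB27B dock secretory granules at the plasma membrane. RAB27A read 6.74, 6.72 and 6.75 in untreated cells, 6.81, 6.70 and 6.81 with the control vector and 6.90, 6.93 and 6.54 with the YAP mutant vector. RAB27B read 6.62, 6.46 and 6.46, then 6.50, 6.58 and 6.41, then 6.48, 6.52 and 6.31 in the same order. Both lay close to background and their groups overlapped in every comparison, with log2 differences between -0.08 and 0.05.

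The SNARE partners of STX1A in endocrine exocytosis were not called in any comparison. SNAP25 read 9.60, 9.92 and 9.86 in untreated cells, 9.92, 10.10 and 9.91 with the control vector and 9.83, 9.94 and 9.99 with the YAP mutant vector. VAMP2, the vesicle partner, read 6.95, 6.78 and 6.99, then 6.84, 7.15 and 6.99, then 6.92, 7.12 and 7.09. The groups of both genes overlapped in all 3 comparisons, and their log2 differences between YAP mutant and untreated arrays were 0.12 ± 0.11 and 0.13 ± 0.11 (SE, 3 arrays per group; adjusted p = 0.605 and 0.560 by limma). The difference between STX1A and its partners was not tested. SNAP23, the broadly expressed relative of SNAP25, read 9.19, 9.59 and 9.36, then 9.29, 9.22 and 9.43, then 9.14, 9.32 and 9.35, and also overlapped.

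STX2, a plasma membrane syntaxin also called epimorphin, read 10.65, 10.69 and 10.74 in untreated cells, 10.35, 10.44 and 10.44 with the control vector and 10.22, 10.43 and 10.43 with the YAP mutant vector. Both vector groups lay below untreated cells, by -0.28 (limma, adjusted p = 0.168) and -0.33 (adjusted p = 0.0559), and overlapped each other. STX3, the syntaxin of the apical membrane, read 7.07, 7.25 and 7.01, then 7.18, 7.30 and 7.27, then 7.13, 7.18 and 7.29, with no separation. STX8, a syntaxin of late endosomes, read 7.57, 7.22 and 7.37 in untreated cells, 7.61, 7.64 and 7.81 with the control vector and 7.73, 7.58 and 7.58 with the YAP mutant vector. Its vector arrays lay above the untreated ones, by 0.30 (limma, adjusted p = 0.176) and 0.24 (adjusted p = 0.220).

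Among the other VAMPs, VAMP8 read 7.88, 7.68 and 7.82 in untreated cells, 7.90, 7.63 and 7.53 with the control vector and 7.62, 7.64 and 7.71 with the YAP mutant vector. VAMP1, a vesicle SNARE close to VAMP2, read 8.77, 8.81 and 8.72, then 8.80, 8.42 and 8.53, then 8.58, 8.73 and 8.63. VAMP4, a SNARE of the trans-Golgi network and of maturing granules, read 9.07, 9.14 and 9.16, then 9.18, 9.05 and 9.08, then 8.87, 8.97 and 9.12. The groups of all these overlapped in every comparison. Leaving VAMP5 aside, the member differences of the VAMP family spanned -0.13 to 0.06 between the vectors. SNAP29, a SNARE of endosomes and autophagosomes, read 7.29, 7.66 and 7.70, then 7.47, 7.52 and 7.17, then 7.38, 7.36 and 7.37, and overlapped likewise.

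No synaptotagmin was called in any comparison (limma, 0 of 8), where 0.340%, 5.17% and 2.18% of all features were called. With so few members, 0 calls do not set the family apart. In each comparison 1 of the 8 (12.5%) had an unadjusted p under 0.05 (limma), beside 6.49%, 18.4% and 13.9% of all features. The order is YAP mutant against control vector, YAP mutant against untreated and control vector against untreated. SYT7, a calcium sensor of high affinity that acts in hormone granule release, came closest. It read 7.83, 8.27 and 8.15 in untreated cells, 8.36, 8.48 and 8.59 with the control vector and 8.34, 8.56 and 8.35 with the YAP mutant vector. Every vector array lay above every untreated array, by 0.39 ± 0.12 with the control vector (SE, 3 arrays per group; adjusted p = 0.0844 by limma) and 0.33 ± 0.12 with the YAP mutant vector (adjusted p = 0.107).

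SYT13, which does not bind calcium and is known from endocrine cells of the mouse pancreas, read 6.60, 6.58 and 6.60 in untreated cells, 6.66, 6.73 and 6.72 with the control vector and 6.23, 6.60 and 6.60 with the YAP mutant vector. Its YAP mutant arrays lay below the control vector arrays, by -0.23 (limma, adjusted p = 0.753), with YAP mutant replicate 1, a dim array, the lowest. SYT4, which lies on immature granules, read 10.52, 10.58 and 10.56, then 10.72, 10.83 and 10.76, then 10.46, 10.57 and 10.86. The control vector arrays of SYT4 were above the untreated ones, by 0.22 (limma, adjusted p = 0.376).

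SYT1, the calcium sensor of fast release in neurons, read 8.40, 8.27 and 8.36 in untreated cells, 8.39, 8.66 and 8.59 with the control vector and 8.41, 8.49 and 8.55 with the YAP mutant vector. SYT5, another calcium-binding member, stayed near background at 6.30, 6.38 and 6.52, then 6.19, 6.58 and 6.32, then 6.38, 6.39 and 6.57. Only the YAP mutant and untreated arrays of SYT1 did not overlap, at a log2 difference of 0.14 (limma, adjusted p = 0.513). SYT11, which does not bind calcium, read 10.62, 10.79 and 10.68, then 10.78, 10.81 and 10.74, then 10.67, 10.87 and 10.85. SYT17 read 7.34, 7.32 and 6.96, then 7.28, 7.16 and 7.70, then 7.34, 7.60 and 7.49. Neither separated the groups.

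**Figure D3:**
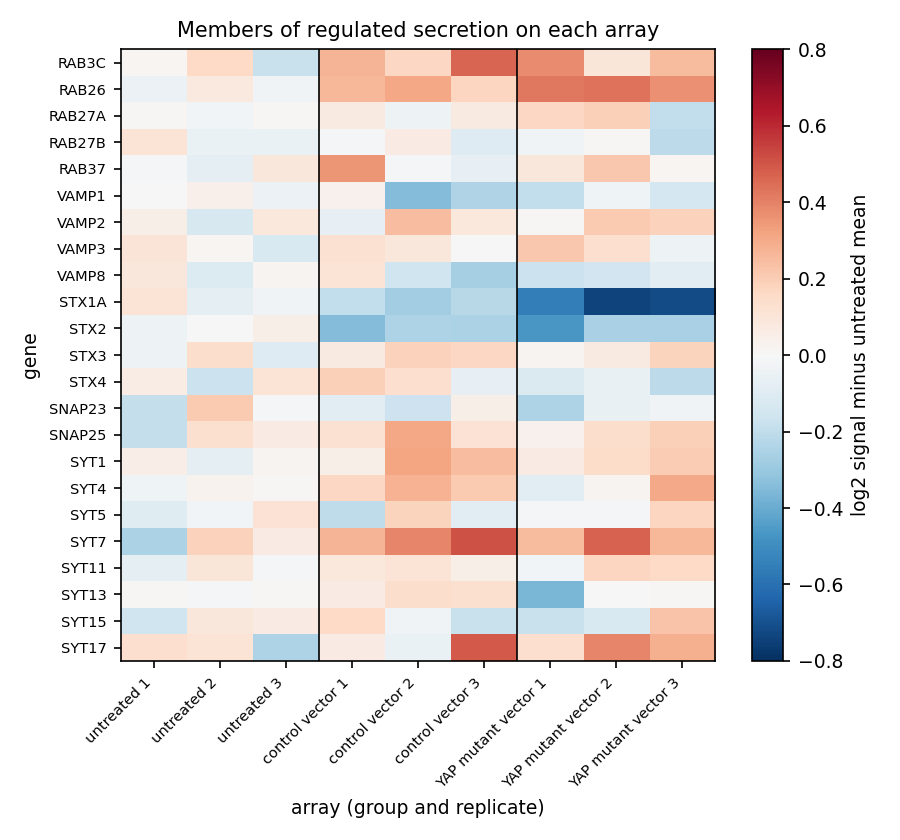
Log2 signal minus the untreated mean for the detected Rabs of regulated secretion, plasma membrane and exocytic SNAREs, and synaptotagmins on each of the 9 arrays. STX1A darkens from the control vector arrays to the YAP mutant arrays, RAB26 and SYT7 are raised in both vector groups, and SNAP25 and VAMP2 show no such step.

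The other 46 detected members, mostly Rabs and SNAREs of the Golgi, endosomes and recycling routes, were not called. Their log2 differences ran from -0.21 to 0.25 between the vectors, from -0.24 to 0.31 between YAP mutant and untreated arrays and from -0.27 to 0.30 between control vector and untreated arrays. The smallest adjusted p among them was 0.760, 0.126 and 0.192 in these comparisons (limma). The median SD within a group over the detected members was 0.107 on the log2 scale. RAB20, an early endosomal Rab, had the highest of these differences between the vectors, and RAB13, a Rab of tight junction traffic, the highest between YAP mutant and untreated arrays. RAB3C, the only detected RAB3 gene, differed by 0.30 between control vector and untreated arrays (limma, adjusted p = 0.214).

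Grouped by compartment, at most 1 member of a role list was called in a comparison, so each count below rests on a single gene. Between YAP mutant and untreated arrays, 5.17% of all features were called. Of the 10 detected SNAREs of the plasma membrane and exocytic vesicles, 0 rose and 1 fell, STX1A, with the YAP mutant vector against untreated cells, and their median log2 difference was -0.12 beside -0.01 over all features. Of the 5 detected Rabs of regulated secretion, 1 rose, RAB26, with a median of 0.11. The 9 Rabs of the endoplasmic reticulum and Golgi had a median of -0.11 with 0 called, at 0 unadjusted p-values under 0.05 (limma), and the 7 early endosomal Rabs a median of 0.02, also with 0 called and 2 such p-values. The 3 calcium-binding synaptotagmins had a median of 0.14.

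Over all 71 detected members the median log2 difference was -0.02 between the vectors, -0.02 between YAP mutant and untreated arrays and 0.01 between control vector and untreated arrays. The median size of a difference, sign aside, was 0.07, 0.11 and 0.11, and over all features it was 0.08, 0.11 and 0.10. An unadjusted p under 0.05 was found for 4, 15 and 12 members, or 5.63%, 21.1% and 16.9%, beside 6.49%, 18.4% and 13.9% of all features. Groups that did not overlap were found for 8 members between the vectors, where 11.5% of all features did not overlap. The counts were 16 for the YAP mutant vector and 18 between control vector and untreated arrays, where 23.3% and 18.7% of all features did not overlap. For the 18 members with more than 1 probe above background, the brightest was set against the kept probe differing most from it. These pairs differed in sign in 11 cases between the vectors. They did so in 6 between YAP mutant and untreated arrays and in 8 between control vector and untreated arrays. The gap within a pair was at most 0.31, for RAB23. VAMP5, STX1A, RAB26 and RAB15 were each read by 1 probe, so no second probe checks them.

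**Figure D4:**
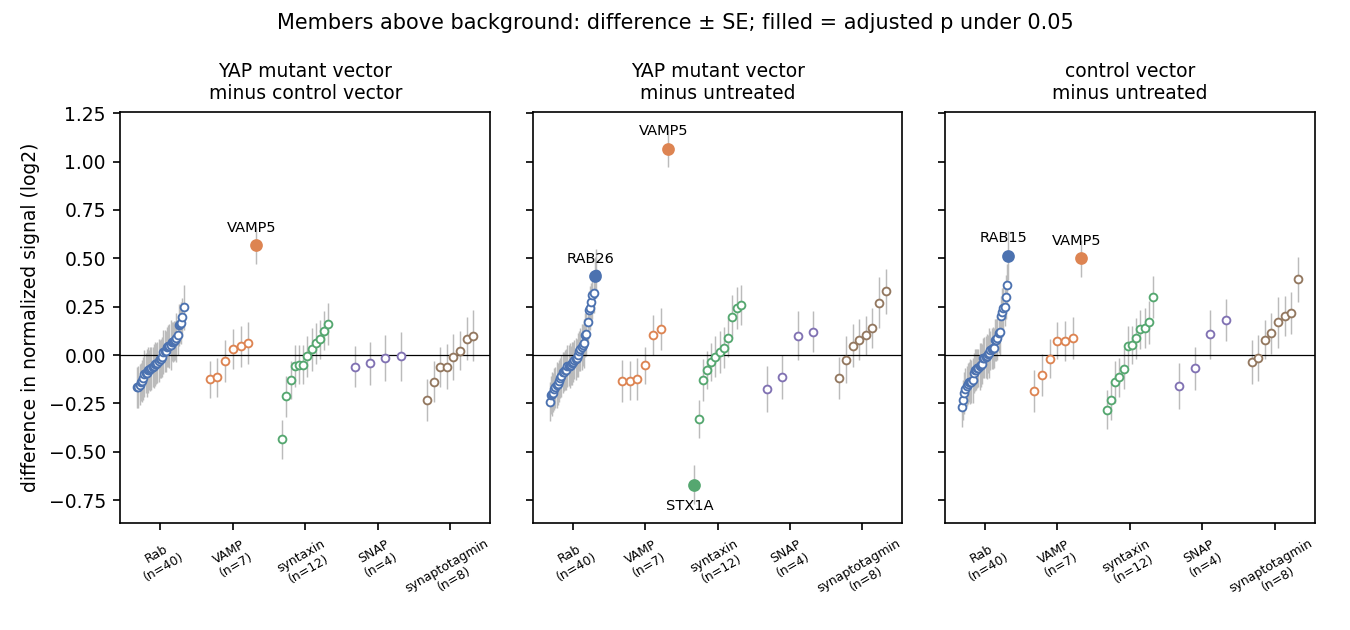
Log2 difference (± SE) of each of the 71 detected members in the 3 comparisons, ordered by size within each family; filled points had an adjusted p under 0.05. VAMP5 stands alone between the vectors, VAMP5, RAB26 and STX1A are filled between YAP mutant and untreated arrays, and VAMP5 and RAB15 for the control vector.

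The proteins that act with these families were read from lists of partners. Of 31 detected genes of the exocytosis machinery, 2 rose with the YAP mutant vector against untreated cells, a share of 6.45% near the 5.17% of all features. SYTL2, a synaptotagmin-like effector of RAB27, had mean log2 signals of 8.19, 8.41 and 8.64 in untreated, control vector and YAP mutant arrays and rose by 0.46 ± 0.12 (SE, n = 3 per group; limma, adjusted p = 0.0311). MYRIP, which links RAB27A granules to myosin, had means of 8.13, 8.37 and 8.58 and rose by 0.45 ± 0.12 (limma, adjusted p = 0.0307).

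Of 54 detected genes for Rab prenylation, GDI, exchange factors and GTPase-activating proteins, 1 rose and 1 fell with the YAP mutant vector against untreated cells, a share of 3.70%. TBC1D2, a GTPase-activating protein for RAB7, rose by 0.72 ± 0.11 (SE, n = 3 per group; limma, adjusted p = 0.000201). DENND4C, an exchange factor for RAB10, fell by 0.46 ± 0.11 (limma, adjusted p = 0.00914), and with the control vector against untreated cells by 0.52 ± 0.11 (adjusted p = 0.00761). RAB7A and RAB10 themselves were not called, at -0.09 and -0.05 with the YAP mutant vector against untreated cells. Of 22 Rab effectors, RILPL1, which regulates ciliary membrane proteins, rose by 0.51 ± 0.11 with the YAP mutant vector and by 0.43 ± 0.11 with the control vector (limma, adjusted p = 0.00698 and 0.0426). Of 26 tethering subunits, COG1 of the Golgi tether rose by 0.38 ± 0.11 with the YAP mutant vector (limma, adjusted p = 0.0448). The effectors and tethers called against untreated cells, 4.55% and 3.85% with the YAP mutant vector, were likewise near the share of all features. None of the 10 other SNAREs was called in any comparison, with 0, 2 and 1 at an unadjusted p under 0.05 (limma). None of the partners was called between the vectors (limma), where 9 had an unadjusted p under 0.05.

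Granule cargo was read from the enteroendocrine markers. With the YAP mutant vector against untreated cells, 2 of 11 detected genes rose and 2 fell, with a list median of 0.08, where 5.17% of all features were called. SCG2, a granin of secretory granules, had mean log2 signals of 12.41, 11.98 and 11.54 in untreated, control vector and YAP mutant arrays and fell by 0.87 ± 0.10 (SE, n = 3 per group; limma, adjusted p = 5.95e-06). PCSK1, the prohormone convertase, fell by 0.57 ± 0.11 (limma, adjusted p = 0.00249). SCG3 and SCG5, granule proteins that act in sorting and in convertase folding, rose by 0.43 and 0.34 (limma, adjusted p = 0.0351 and 0.0352). GCG and CHGA were not called, at 0.13 and 0.14. Of the 11 genes, 1 fell with the control vector against untreated cells, where 2.18% of all features were called. Between the vectors 0 were called, where 0.340% of all features were called. SCG2 had the lowest difference of the list in both, at -0.43 and -0.44.

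No marker of another cell type was called between the vectors (limma), where 0.340% of all features were called. Against untreated cells, 5.17% of all features were called with the YAP mutant vector and 2.18% with the control vector. The marker calls made 25.0% of the fibroblast and 33.3% of the epithelial list with the YAP mutant vector, and 33.3% of the blood list with the control vector. These shares are higher, but each rests on 1 gene. Against untreated cells 1 of 4 detected fibroblast markers was called with the YAP mutant vector, LUM, which rose by 0.51 (limma, adjusted p = 0.0159). In that comparison 3 of the 4 had a difference above 0 and 1 below, COL1A1 at -0.09, with a list median of 0.13. The keratin gene KRT8, 1 of 3 detected epithelial markers, rose by 0.50 with the YAP mutant vector (limma, adjusted p = 0.0460). Of 3 blood markers, CD14 rose by 0.43 with the control vector (limma, adjusted p = 0.0381). The summed linear signal of the 4 detected fibroblast markers ran from 2858 to 3073 in untreated arrays, from 3128 to 3763 with the control vector and from 3458 to 4160 with the YAP mutant vector. That of the 3 detected blood markers ran from 2445 to 2841, from 3261 to 3308 and from 2658 to 3438. Summed enteroendocrine markers ran from 49156 to 53604, from 50823 to 56789 and from 49960 to 52973, and summed epithelial markers from 1125 to 1199, from 972 to 1354 and from 1080 to 1631. The single detected endothelial marker, ESAM, ran from 92.3 to 109, from 79.5 to 104 and from 103 to 108. The part of these markers in the differences of VAMP5, STX1A, RAB26 and RAB15 was not tested.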

How the data were processed

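Expression was measured by the authors in 9 RNA samples of NCI-H716 cells, 3 per group as labelled, on Illumina bead arrays. One deposited table, a BeadStudio export per the labels, gives the raw intensity of each probe, neither background corrected nor normalized, with no detection p. The other gives log2 values normalized by the authors, which differed by at most 0.005 from quantile-normalized log2 intensities. The array and scan layout and the genome build are not given in the sources used here. No pair of arrays was identical (0 pairs), and 0 columns were left unused.

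In limma 3.58.1 (R 4.3.3), raw intensities underwent normexp correction with an offset of 50 and then quantile normalization, and were expressed as log2. A probe was kept when its raw log2 signal on at least 3 of 9 arrays lay more than 1.645 SDs (from the lower side of the distribution) over the array's mode, leaving 20218 probes. Symbols were updated with RefSeq for 4626 probes, 27036 were current, 12244 kept the file's name and 3324 were unnamed. The brightest kept probe stood for a gene, giving 15589 features. All 9 arrays entered the same limma fit, which estimated 1 mean for each group (residual degrees of freedom 6, prior 16.2). Benjamini-Hochberg adjustment ran over all features, calls were made at an adjusted p under 0.05, and tests were two-sided. The steps were tested on simulated data. A fold against a group that lay above background on no array is a lower bound against that background. The number of arrays limits the precision.

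The members, role lists, partner lists and markers were chosen with earlier results of these data known. Values on every array are given for called members, for the 3 smallest p-values of each family, and for chosen members of regulated secretion that were detected. Called partner genes are named, up to 6 per list. Alternatives covered background correction, the authors' table, other normalizations and filters, the mean over probes, the prior variance, the samples in the fit, the replicate block and each array left out.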

Additional observations from a re-analysis of the deposited data

How the results depend on the processing

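The rise of VAMP5 and the fall of STX1A with the YAP mutant vector against untreated cells were called under 20 of 20 alternatives, with log2 differences from 0.92 to 1.08 and from -0.83 to -0.61. The VAMP5 call between the vectors held under 19 of 20 alternatives, and so did that of the control vector against untreated cells; both failed only with common-median scaling. RAB26 held under 18 of 20. RAB15 held under 11 of 19, but it was tested only through its vector arrays, so this count supports nothing. It was lost without background correction, in the authors' table, with common-median scaling and without both dim arrays. It was also lost without untreated replicate 1 or 2 or control vector replicate 1 or 3. No called member changed direction (0 of these results).

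Members called between the vectors numbered 1, and 2 without background correction, in the authors' table or with a trended, robust prior variance, where STX1A was added, and 0 with common-median scaling. Between YAP mutant and untreated arrays the 3 calls became 5 under the same 3 alternatives, with STX2 added in each, RAB40B without background correction and in the authors' table, and RAB15 with the trended prior. RAB15 passed in that comparison under 9 alternatives in all, but these passes support nothing, as it was tested only through its vector arrays. Between control vector and untreated arrays the 2 calls became 0 with common-median scaling, and 1 when a probe had to be above background on all 9 arrays or both dim arrays were left out. Without background correction and in the authors' table it stayed at 2, with RAB40B (adjusted p = 0.0437 and 0.0442) in place of RAB15. Leaving out 1 array at a time gave 1 to 1, 3 to 4 and 1 to 2 called members. RAB15 is among the members counted wherever it passed.

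Over all features, 53, 806 and 340 genes were called in the order YAP mutant against control vector, YAP mutant against untreated and control vector against untreated. Common-median scaling gave 10, 182 and 47, and leaving out both dim arrays gave 27 for the first and 159 for the last. Leaving out 1 array at a time gave 23 to 54, 475 to 874 and 157 to 371. The cause was not tested.

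Replicate numbers left no visible pairing of the arrays, though the labels do not say whether they pair. Same-numbered arrays deviated from their group means with correlations of -0.20 to 0.16, over 0.1 in 1 of 9 pairs. For arrays with other numbers the correlations ran from -0.16 to 0.20. With 3 arrays per group this check is too weak to settle the point. With the replicate number as a block, 64, 868 and 383 genes and 1, 4 and 2 members were called. Signal near background limits RAB15, RAB27B, SYT5 and SYT13, and 1 probe per called member limits the rest.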
